A study of Mus musculus with 16 samples.

Results

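The genes described here are 9 genes of the GABAergic interneuron lineage, Dlx1, Dlx2, Dlx5, Dlx6, Lhx6, Sp8, Sp9, Gad1 and Gad2. They were chosen by name, as the rows of the deposited expression tables that carry these symbols, and are 9 of the 23789 genes that could be tested in both days together. All 9 passed the filter on low values in every comparison. The libraries were made from neural stem cells (NSC) of C57BL/6 mouse cortices at E15 to E16, pooled over embryos and grown as monolayers on poly-D-lysine. Cells received a lentivirus with either a scrambled shRNA (scr shRNA, the control, genotype "control") or an shRNA against the lncRNA RUS (RUS shRNA), a single hairpin sequence driven by the U6 promoter of a puromycin resistance vector. Cells of both kinds were therefore transduced cells, and the effect of 1 hairpin cannot be told apart from effects of its sequence on other transcripts. RNA was taken on day 5 after seeding, when the cells had been in medium with FGF2, B27 and serum, and on day 7, after a change on day 5 to Neurobasal medium with B27 and GlutaMAX, which starts differentiation. There were 4 libraries in each of the 4 groups and 16 in all. Their labels number them 1 to 4 and name no animal, batch or date, so that p-values measure the spread between these libraries.

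GABAergic neurons of the forebrain are born in the ganglionic eminences of the ventral telencephalon. The homeodomain factors Dlx1 and Dlx2 act there in dividing progenitors and are followed by Dlx5 and Dlx6, which carry differentiation and migration forward. Lhx6, a LIM homeodomain factor, marks the cells of the medial ganglionic eminence that become parvalbumin and somatostatin interneurons, whereas the zinc finger factors Sp8 and Sp9 work in the lateral and caudal eminences and in olfactory bulb interneurons. Gad1 and Gad2 encode the glutamate decarboxylases that make GABA. Radial glia of the cortex itself mostly give rise to glutamatergic neurons, by way of Emx1, Emx2, Neurog2, Eomes, Neurod1 and Tbr1.

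In brief, the 9 genes were above 0 in every library of these cortical cultures. With scr shRNA on day 5 they ranged from Lhx6 at 1.42 scaled TPM to Dlx1 at 103. Most of them increased from day 5 to day 7 with either shRNA. RUS shRNA went with lower levels of Dlx6, Gad1 and 3 others on day 5, where 17.9% of all genes were called lower. On day 7 it went with higher levels of Gad1, Dlx1, Gad2 and Sp8, where 23.4% of all genes were called higher. The calls of the 3 others on day 5, Dlx1, Dlx5 and Lhx6, were close to the threshold. With 1 library left out, 2 to 5 members were called lower on day 5. Dlx2 was the member that passed no test in any comparison.

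Of the 9 genes, 6 lie on chromosome 2 (GENCODE vM21, GRCm38). Gad2 is at chr2:22622205-22693874 on the plus strand, Lhx6 at chr2:36081953-36105408 on the minus strand, Gad1 at chr2:70553072-70602014 on the plus strand, Dlx1 at chr2:71528113-71533981 on the plus strand, Dlx2 at chr2:71543408-71546754 on the minus strand and Sp9 at chr2:73271925-73284706 on the plus strand. Dlx1 and Dlx2 are a converging pair with 9426 bp between them. A second converging pair is on chromosome 6, with Dlx6 at chr6:6863334-6868568 on the plus strand and Dlx5 at chr6:6877805-6882085 on the minus strand, 9236 bp apart. Sp8 is at chr12:118846329-118852576 on the plus strand. Each Dlx pair has an annotated antisense RNA, Dlx1as at chr2:71516454-71537891, which covers Dlx1, and Dlx6os1 at chr6:6820189-6871592, which covers Dlx6. The sources used here do not say whether reads were counted by strand, so that reads of a gene and its antisense partner cannot be told apart. Dlx6os1 stands on more than 1 line of the tables, and the line with the higher base mean, the antisense gene, was used.

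Upstream sequences are shown for Dlx2, the member that was called in no comparison, and for the paralogs Sp8 and Sp9, whose windows share a run of bases. They come from the promoter windows of RefSeq (GRCm38.p6), which hold 250 bases before the start, without bases that an annotated exon covers, and run 5′ to 3′ on the strand of the gene. Capitals mark GC boxes (GGGCGG on either strand), CCAAT boxes (CCAAT on either strand) and a run of 15 bases that Sp8 and Sp9 share. The Dlx2 window is chr2:71546755-71547004 (minus strand), the Sp8 window is chr12:118846983-118847232 (plus strand, the start with a GC box among the 3 that RefSeq lists) and the Sp9 window is chr2:73271676-73271924 (plus strand).
Dlx2: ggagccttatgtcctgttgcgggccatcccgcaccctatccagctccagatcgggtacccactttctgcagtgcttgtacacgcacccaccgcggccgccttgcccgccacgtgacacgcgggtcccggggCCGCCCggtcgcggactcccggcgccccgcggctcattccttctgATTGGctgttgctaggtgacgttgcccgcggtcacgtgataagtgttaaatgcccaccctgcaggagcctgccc
Sp8: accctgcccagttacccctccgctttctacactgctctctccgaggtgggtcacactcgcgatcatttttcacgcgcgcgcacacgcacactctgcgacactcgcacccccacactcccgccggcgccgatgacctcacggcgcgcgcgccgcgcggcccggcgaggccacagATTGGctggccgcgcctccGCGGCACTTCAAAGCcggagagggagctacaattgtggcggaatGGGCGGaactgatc
Sp9: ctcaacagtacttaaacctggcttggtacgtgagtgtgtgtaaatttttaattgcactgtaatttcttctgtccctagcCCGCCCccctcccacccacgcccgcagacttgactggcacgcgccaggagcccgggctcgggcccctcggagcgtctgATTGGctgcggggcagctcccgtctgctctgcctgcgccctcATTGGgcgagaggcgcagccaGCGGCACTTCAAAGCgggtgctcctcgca

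Each of the 3 windows held 1 GC box, a motif present in 32.7% of the 32851 RefSeq promoter windows. The Sp8 window was chosen with its GC box known, and the other 2 Sp8 windows held none, so nothing is read from this count. A CCAAT box was found once in Dlx2 and in Sp8 and at 2 places in Sp9, and 33.8% of all windows held one. The shared run begins 58 bases before the start in Sp8 and 30 bases before it in Sp9, and was found in 2 windows of the 32851, these 2. The homeodomain core TAATTA was in none of the 3 windows shown, in another Sp8 window (chr12:118847309-118847558, not shown) and in 4.84% of all windows. The run was found by comparing the windows of the paralogs with each other. Windows for Dlx5 and Dlx6 were not used here.

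Values are given as scaled TPM, the deposited TPM (relative abundance per transcript length) divided by 1 factor per library so that libraries can be compared. The factors ranged from 0.845 to 1.10, TPM holds no read numbers, and between 25615 and 29126 genes were above 0 in a library, so that the depth behind each value is unknown. The tests were made with limma on log2(scaled TPM + 0.1), which understates changes of genes with low levels, the more the lower the level. A gene was called where its p, adjusted by Benjamini-Hochberg over all genes tested, was under 0.05. The targeted transcript, Gm20754 in mouse, was barely detected. It had 0.173 ± 0.0538 TPM with scr shRNA and 0.123 ± 0.141 TPM with RUS shRNA on day 5 (SD, n = 4; 71.0% of control, exact two-sided permutation test, p = 0.543). On day 7 it had 0.555 ± 0.213 and 0.240 ± 0.263 TPM (43.2% of control, exact p = 0.143, n = 4). With 1 library left out the share was 32.9% to 94.7% on day 5, lowest without RUS shRNA replicate 4, and 25.2% to 57.7% on day 7, lowest without RUS shRNA replicate 1. The knockdown can thus not be checked from these tables, and groups are named by their labels.

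The cultures held markers of several cell types. All 6 neural stem cell genes were above 0 in every library, among them Pax6 at 58.3 ± 1.61 scaled TPM with scr shRNA on day 5. In these bulk libraries, fewer cells of a type and less RNA per cell cannot be told apart, here and in all results that follow.

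Levels were compared between genes on the scaled TPM scale, which is per transcript length. With scr shRNA on day 5, Dlx1 was the most abundant of the 9 at 103 ± 8.30 (SD, n = 4), followed by Dlx2 at 36.04 ± 6.62 and Gad1 at 27.6 ± 2.70, whose ranges overlapped. Dlx5 came next at 13.9 ± 1.45. The levels of Gad2 (8.35 ± 1.07), Dlx6 (8.32 ± 0.733), Sp9 (5.75 ± 1.97) and Sp8 (5.48 ± 0.694) overlapped from neighbour to neighbour. Lhx6 stood apart as the lowest, at 1.42 ± 0.111. On day 7 the order changed in 3 respects with either shRNA: Gad1 stood above Dlx2 without overlap, and Sp9 and Sp8 stood above Dlx6, in overlap with their neighbours in that order.

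The 14 genes of the glutamatergic cortical lineage were set beside them on the same scale. Summed over the list, they reached 32.9 to 40.6 scaled TPM in the scr shRNA libraries of day 5, against 184 to 229 for the 9 GABAergic genes, and 39.8 to 45.5 against 269 to 292 on day 7. On day 5 most of the glutamatergic sum came from Emx2, a patterning factor of dorsal progenitors, at 21.9 ± 1.57, which was at 14.2 ± 1.15 on day 7. Slc17a7, which encodes a vesicular glutamate transporter, was at 0.575 ± 0.136 on day 5 and 0.143 ± 0.0472 on day 7 with scr shRNA, and Neurod1 at 0.158 ± 0.0470 and 0.591 ± 0.126. Fezf2 and Bcl11b, factors of deep layer projection neurons, and Emx1, a dorsal patterning factor, had higher levels than these. Fezf2 went from 6.52 ± 0.626 on day 5 to 9.14 ± 0.902 on day 7 with scr shRNA, a rise of 0.48 on the log2 scale (limma adjusted p = 0.00271). Bcl11b went from 3.58 ± 0.584 on day 5 to 9.31 ± 1.52 on day 7 with scr shRNA, a rise of 1.36 on the log2 scale (limma adjusted p = 2.45e-07). The pattern of Bcl11b over all libraries was close to that of Sp8 (Pearson's r = 0.986). In these mixed cultures the RNA of Bcl11b cannot be assigned to the glutamatergic lineage alone. Emx1 went from 2.52 ± 0.565 on day 5 to 6.57 ± 0.815 on day 7 with scr shRNA, a rise of 1.37 on the log2 scale (limma adjusted p = 3.01e-05). Neurog1, Neurod2, Neurod6 and Slc17a6 stayed under the filter of a mean of 0.1 TPM in both days. These are levels of RNA in a mixed culture, and lengths and annotations differ between genes.

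**Figure D1:**
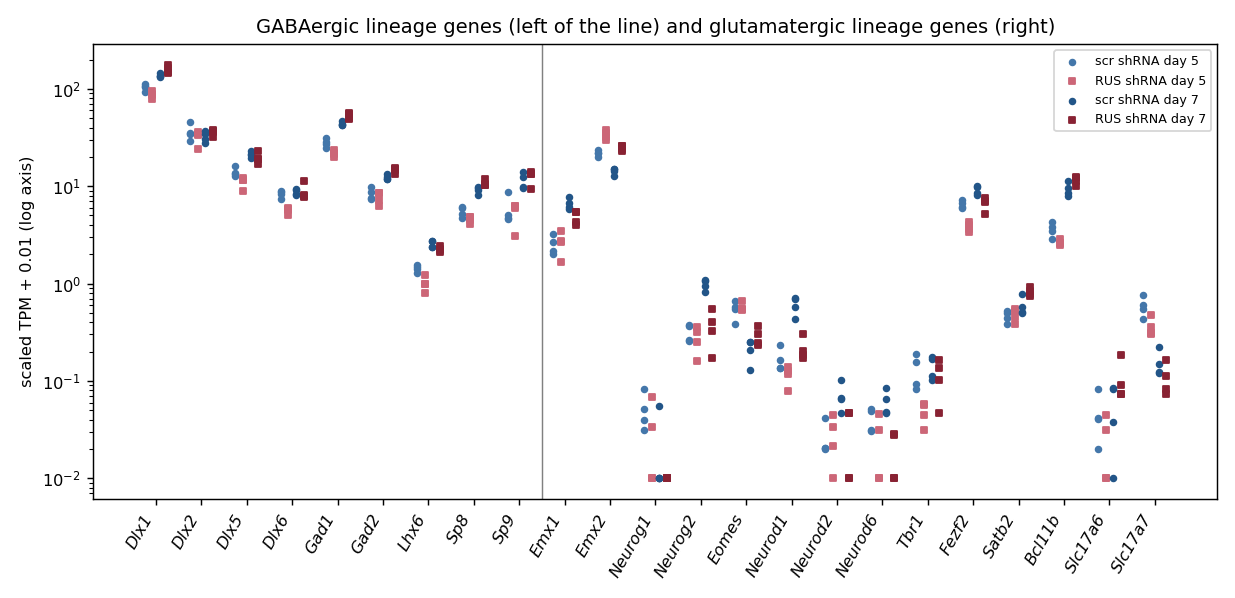
Scaled TPM + 0.01 on a log axis for the 9 GABAergic lineage genes (left of the line) and 14 genes of the glutamatergic cortical lineage (right), each point 1 of 16 libraries, colored by group. Dlx1 lies highest at 103 with scr shRNA on day 5, and on the right Emx2 is the highest of that day, while Neurog1, Neurod2, Neurod6 and Slc17a6 lie near the bottom.

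On day 5, RUS shRNA went with lower levels of 5 of the 9 genes and with higher levels of none. These were Dlx6, Gad1, Lhx6, Dlx5 and Dlx1. Among all 22581 genes tested on that day, 17.9% were called lower and 14.8% higher, and the median log2 fold change was −0.26 over the 9 genes and −0.06 over all genes. The groups did not overlap for 4 of the 9 genes, all with RUS shRNA below, as for 18.7% of all genes.

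Dlx6 had the largest decrease. The scr shRNA libraries of day 5 had 8.997, 7.32, 8.24 and 8.70 scaled TPM of Dlx6, and the RUS shRNA libraries 5.66, 5.82, 5.96 and 5.08. Every RUS shRNA library lay below every control. The log2 fold change was −0.55 (standard error 0.09, limma adjusted p = 0.00162), and it was called in all 19 alternative fits of that day. Its antisense partner Dlx6os1, an RNA that overlaps Dlx6, fell alike, with a log2 fold change of −0.73 (standard error 0.13, limma adjusted p = 0.00212). The other gene of the pair, Dlx5, fell by 0.34 on the log2 scale (standard error 0.11, limma adjusted p = 0.0419), from 12.7 to 16.0 scaled TPM in the controls to 8.90 to 12.1 with RUS shRNA. The ratio of Dlx5 to Dlx6 within a library does not depend on the scaling. It was 1.68 ± 0.142 with scr shRNA and 1.95 ± 0.131 with RUS shRNA on day 5 (exact permutation test, two-sided, p = 0.0571, n = 4; adjusted over 16 such ratio tests p = 0.152), so that an unequal decrease of the pair was not established.

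Gad1 was the other decrease that held in all 19 alternative fits. The controls of day 5 had 30.9, 24.4, 26.9 and 28.1 scaled TPM, and the RUS shRNA libraries 22.2, 19.9, 23.4 and 21.4. The groups did not overlap, with a log2 fold change of −0.34 (standard error 0.08, limma adjusted p = 0.0111). Gad2, the gene of the second decarboxylase, ranged from 7.45 to 9.71 in the controls and from 6.30 to 8.60 with RUS shRNA. These ranges overlapped, and its log2 fold change of −0.13 (SE 0.13) was not called (limma adjusted p = 0.480).

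Dlx1 had 112, 92.2, 104 and 106 scaled TPM in the controls of day 5 and 87.9, 86.2, 94.1 and 78.5 with RUS shRNA. One control library, replicate 2, lay below the highest RUS shRNA library. The log2 fold change was −0.25 (standard error 0.07, limma adjusted p = 0.0286). Lhx6 ranged from 1.27 to 1.53 in the controls and from 0.787 to 1.21 with RUS shRNA, without overlap, with a log2 fold change of −0.49 (standard error 0.16, limma adjusted p = 0.0381). The calls for Dlx1, Dlx5 and Lhx6 were close to the threshold. With 1 library left out, Dlx1 was no longer called without scr shRNA replicate 1, 3 or 4 or RUS shRNA replicate 1 or 2 (limma adjusted p of 0.0552 to 0.0755). Dlx5 lost its call without scr shRNA replicate 1, 3 or 4 or RUS shRNA replicate 1, 2 or 4 (0.0554 to 0.105), and Lhx6 without any library other than RUS shRNA replicate 3 (0.0526 to 0.0933). The number of members called lower was then as low as 2.

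Sp8 ranged from 4.66 to 6.15 scaled TPM in the controls of day 5 and from 4.03 to 4.84 with RUS shRNA, a log2 fold change of −0.26 that was not called (limma adjusted p = 0.101). It was called with TPM as deposited (−0.42, limma adjusted p = 0.0220), where the median of all genes on day 5 moved to −0.21, and in the fit over all 16 libraries (limma adjusted p = 0.0406).

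On day 5, Sp9 had the largest standard error of the 9 genes (0.27 on the log2 scale), and Dlx2 had 0.15, close to Lhx6 with 0.16. Dlx2 had 34.4, 29.4, 35.2 and 45.2 scaled TPM in the controls of day 5 and 34.6, 36.01, 33.8 and 24.3 with RUS shRNA. Sp9 had 4.74, 4.58, 4.99 and 8.69 in the controls and 6.26, 6.24, 6.03 and 3.08 with RUS shRNA. In both genes replicate 4 was the highest control and the lowest RUS shRNA library. Their log2 fold changes were −0.16 for Dlx2 (limma adjusted p = 0.462) and −0.09 for Sp9 (limma adjusted p = 0.832). Without both day 5 libraries numbered 4 the direction turned: Dlx2 was at 0.08 (limma adjusted p = 0.456) and Sp9 at 0.37, which was then called (limma adjusted p = 0.0127). That alternative was chosen after these values were seen. In it, Gad1 and Dlx6 were still called lower, and Dlx1, Dlx5 and Lhx6 were not (limma adjusted p = 0.0954, 0.0805 and 0.134).

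Several members moved together from library to library. In each of the 4 groups, the library with the lowest Sp9 also had the lowest Dlx2 and the lowest Dlx5: scr shRNA replicate 2 and RUS shRNA replicate 4 on day 5, scr shRNA replicate 4 and RUS shRNA replicate 1 on day 7. Lhx6 was lowest in the same library in 3 of the 4 groups, all but RUS shRNA on day 7. For scr shRNA on day 5 that library, replicate 2, was the lowest of its group for every member. The low level was there not particular to Sp9, Dlx2 and Dlx5. Relative to the mean of its group on the log2 scale, Sp9 spanned −0.73 to 0.64, Dlx2 −0.39 to 0.34 and Dlx5 −0.29 to 0.26. The base composition of the libraries was examined beside this, as the slope of log2 level on the GC share of transcripts, relative to the mean of all libraries. On day 5 the RUS shRNA library numbered 4 had a slope of −0.01 per 10 points of GC, against 0.12, 0.31 and 0.29 in the other 3, and the control numbered 4 had 0.11, against −0.04, −0.03 and 0.01. On day 7 the lowest slopes, −0.25 in scr shRNA replicate 4 and −0.14 in RUS shRNA replicate 1, belonged to the libraries with the lowest Sp9. The longest transcript of Dlx2 has 58.3% GC, above that of 91.5% of the genes that averaged 1 TPM or more, and that of Sp9 has 52.5%. With levels corrected for GC in each library, the log2 fold change of day 5 was −0.27 for Dlx2 and −0.11 for Sp9, neither called (limma adjusted p = 0.113 and 0.784). The part of base composition in this spread was not tested.

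**Figure D2:**
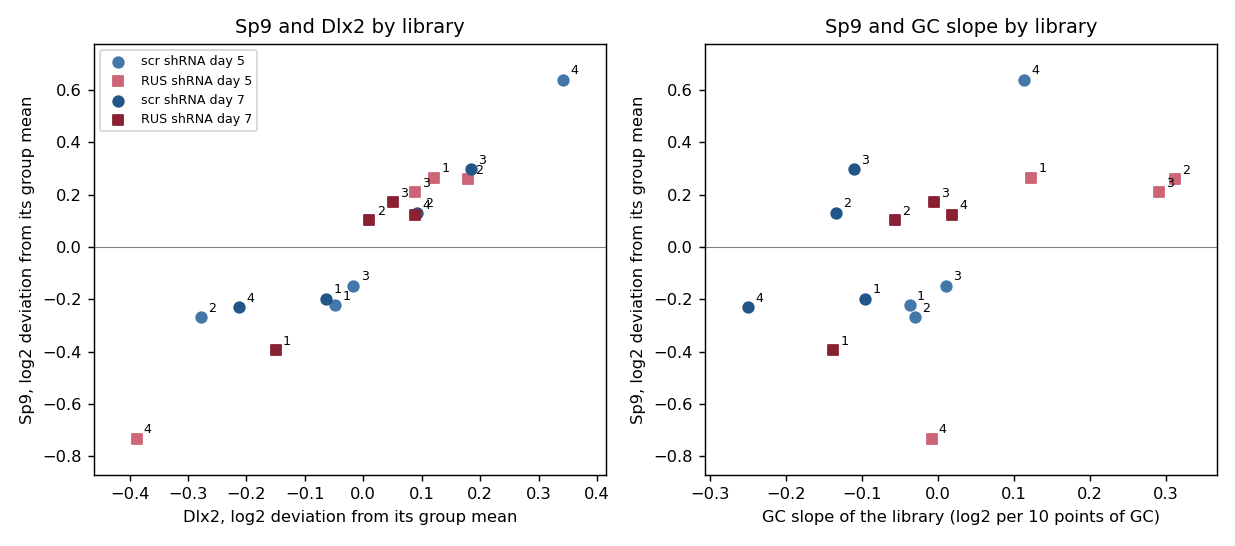
Log2 deviation of Sp9 from the mean of its group in 16 libraries (vertical axis), against the same deviation of Dlx2 (left) and against the GC slope of the library in log2 per 10 points of GC (right); numbers are replicate numbers and colors are groups. Sp9 and Dlx2 deviate in the same direction, and the extreme points are the day 5 libraries numbered 4, at 0.64 with scr shRNA and −0.73 with RUS shRNA.

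On day 7 the direction was the other way. RUS shRNA went with higher levels of 4 of the 9 genes, Gad1, Gad2, Sp8 and Dlx1, and with lower levels of none, where 23.4% of all 24606 genes tested were called higher and 25.8% lower. The median log2 fold change was 0.16 over the 9 genes and −0.03 over all genes. For 3 genes, Gad1, Dlx1 and Sp8, every RUS shRNA library lay above every control, as for 21.5% of all genes.

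Gad1 had 42.6, 42.6, 43.1 and 47.2 scaled TPM in the controls of day 7 and 55.8, 48.6, 49.8 and 55.3 with RUS shRNA. The log2 fold change was 0.27 (standard error 0.05, limma adjusted p = 0.00271). Gad2 ranged from 11.7 to 13.4 in the controls and from 13.4 to 15.3 with RUS shRNA, with a log2 fold change of 0.25 (standard error 0.06, limma adjusted p = 0.00856). The ratio of Gad1 to Gad2 was 3.56 ± 0.277 with scr shRNA and 3.597 ± 0.232 with RUS shRNA (exact permutation test, two-sided, p = 0.771, n = 4; adjusted over 16 ratio tests p = 0.771).

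Dlx1 had 134, 134, 146 and 135 scaled TPM in the controls of day 7 and 146, 149, 164 and 177 with RUS shRNA, a log2 fold change of 0.22 (standard error 0.06, limma adjusted p = 0.0157). The lowest RUS shRNA library was just above the highest control. Sp8 ranged from 8.12 to 9.88 in the controls and from 10.2 to 11.97 with RUS shRNA, with a log2 fold change of 0.24 (standard error 0.08, limma adjusted p = 0.0320). Gad1 and Dlx1 were called in all 18 alternative fits of day 7, Gad2 in 17 and Sp8 in 13. Sp8 was not called without scr shRNA replicate 1 or 4 or RUS shRNA replicate 4 (limma adjusted p of 0.0624 to 0.0798).

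The remaining 5 genes were not called on day 7. Dlx5 ranged from 19.3 to 23.2 with scr shRNA and from 16.9 to 23.1 with RUS shRNA, and its log2 fold change was −0.11 (limma adjusted p = 0.381). Lhx6 ranged from 2.34 to 2.73 and from 2.09 to 2.42, with −0.15 (limma adjusted p = 0.237). Dlx2 had 0.16 (limma adjusted p = 0.184) and Sp9 0.15 (limma adjusted p = 0.478), each with overlapping groups. Dlx6 had 8.23, 9.38, 8.10 and 9.21 with scr shRNA and 11.4, 8.02, 7.69 and 7.84 with RUS shRNA. Replicate 1 of RUS shRNA was the highest library and the other 3 lay below the controls, so that the log2 fold change of −0.001 (standard error 0.12, limma adjusted p = 0.994) took either sign among the alternatives, from −0.13 to 0.05.

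**Figure D3:**
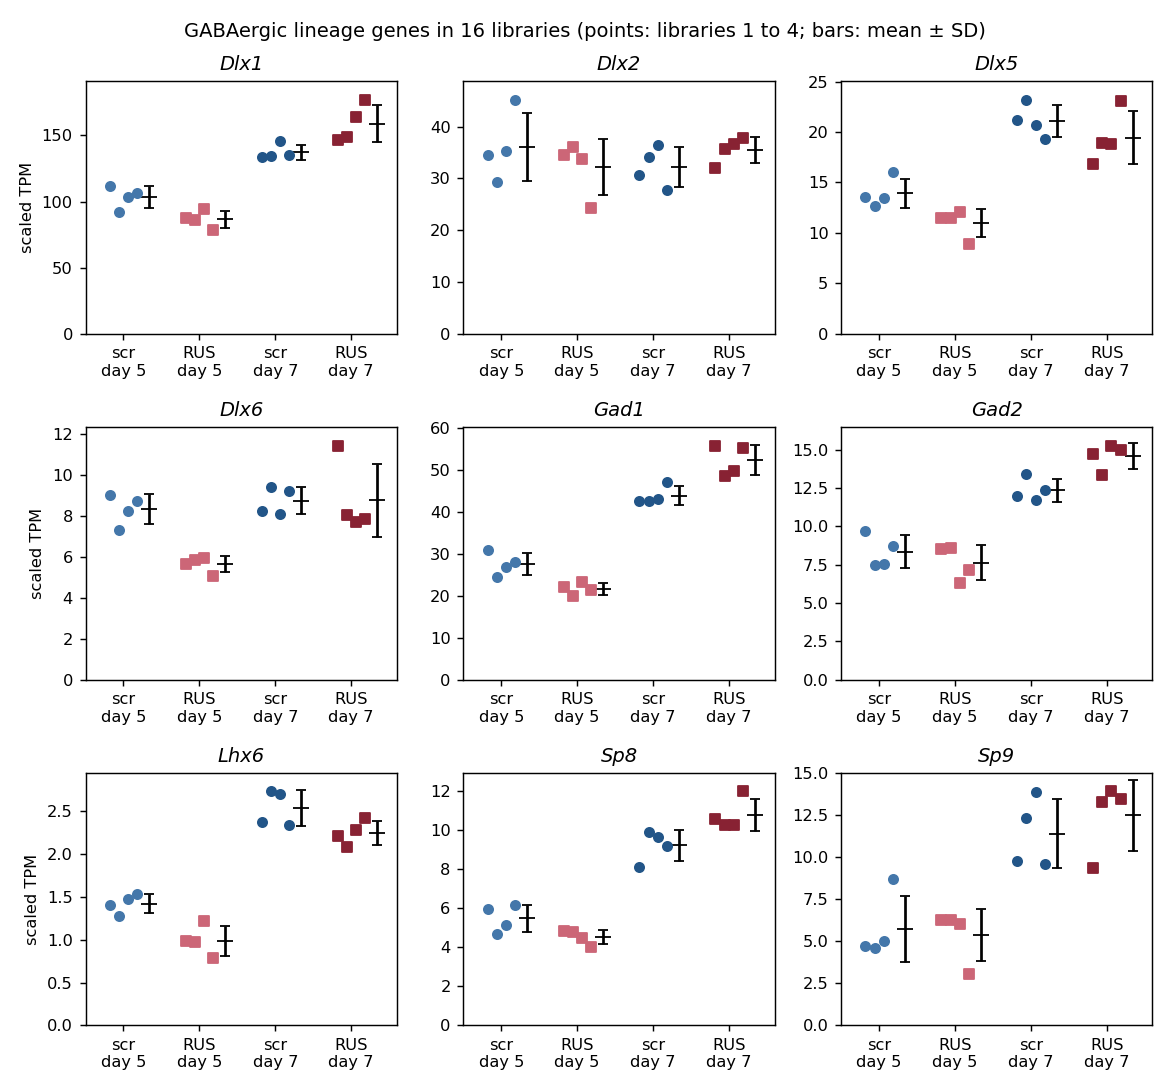
Scaled TPM of each of the 9 genes in every library, with the 4 groups on the horizontal axis; points are libraries 1 to 4 from left to right and bars are the mean ± SD of 4 libraries. For Dlx6 on day 5 all RUS shRNA libraries (5.08 to 5.96) lie below all controls (7.32 to 8.997), and for Gad1 on day 7 all RUS shRNA libraries (48.6 to 55.8) lie above all controls (42.6 to 47.2).

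Whether the knockdown effect was the same on both days was tested in 1 fit over the 16 libraries. A difference was called for 4 of the 9 genes, all with a more positive effect on day 7, and for none in the other direction, where 15.2% of all 23789 genes were called more positive and 14.6% more negative. Gad1 had a difference of 0.59 (standard error 0.10, limma adjusted p = 5.5e-04), Dlx6 of 0.54 (standard error 0.16, limma adjusted p = 0.0189), Sp8 of 0.49 (standard error 0.14, limma adjusted p = 0.0135) and Dlx1 of 0.46 (standard error 0.10, limma adjusted p = 0.00295). Of these, Gad1 and Dlx1 were called in opposite directions on the 2 days. In the fits of each day by itself, Dlx6 was called on day 5 alone and Sp8 on day 7 alone. In the fit over all 16 libraries, Sp8 was instead called lower on day 5 (−0.26, limma adjusted p = 0.0406). There, neither Sp8 (0.22, limma adjusted p = 0.0698) nor Gad2 (0.24, limma adjusted p = 0.0736) was called on day 7. Gad2 had a difference of 0.36 that was not called (limma adjusted p = 0.0731), and Lhx6, Dlx2, Sp9 and Dlx5 had 0.33, 0.31, 0.23 and 0.22 (limma adjusted p of 0.164 to 0.660). The differences of Gad1, Sp8 and Dlx1 were called in all 26 alternative fits and that of Dlx6 in 25, the exception being the fit without both day 5 libraries numbered 4 (0.47, limma adjusted p = 0.0522).

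From day 5 to day 7 most of the lineage genes increased with either shRNA. Day 5 and day 7 come from separate tables, so that day and any difference in how the tables were made cannot be told apart. With scr shRNA, 7 of the 9 genes were called higher and none lower, where 26.9% of all genes were called higher and 21.6% lower. With RUS shRNA, 8 of the 9 were called higher and none lower, where 35.0% of all genes were called higher and 25.8% lower. The medians over the 9 genes were 0.60 with scr shRNA and 0.93 with RUS shRNA on the log2 scale, and those over all genes 0.07 and 0.13. With TPM as deposited, the medians over all genes were 0.20 and 0.41.

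Sp9 had the largest increase with scr shRNA, with a log2 fold change of 1.01 (standard error 0.24, limma adjusted p = 0.00237), a rise from 5.75 ± 1.97 to 11.4 ± 2.06 scaled TPM. Lhx6 rose by 0.80 (SE 0.12), Sp8 by 0.74 (SE 0.10), Gad1 by 0.67 (SE 0.07), Dlx5 by 0.60 (SE 0.11), Gad2 by 0.57 (SE 0.10) and Dlx1 by 0.41 (SE 0.07), with limma adjusted p between 1.44e-06 and 2.66e-04. For each of these 7 genes, every control library of day 7 lay above every control library of day 5. Dlx6 had 0.07 (limma adjusted p = 0.642) and Dlx2 −0.15 (limma adjusted p = 0.388).

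With RUS shRNA, Gad1 had the largest increase, 1.27 (standard error 0.07, limma adjusted p = 8.07e-10), from 21.7 ± 1.43 to 52.4 ± 3.68 scaled TPM, or 2.40-fold. Sp9 and Sp8 rose by 1.23 each, Lhx6 by 1.12, Gad2 by 0.93, Dlx1 by 0.87, Dlx5 by 0.82 and Dlx6 by 0.61 (limma adjusted p between 2.32e-08 and 3.16e-04). Dlx6 reached 8.74 ± 1.79 on day 7, where it stood at 8.73 ± 0.658 with scr shRNA. Dlx2 had 0.16 (limma adjusted p = 0.335). The calls for these 7 and 8 genes held in all 26 alternative fits. Pan-neuronal genes rose over the same days, 7 of 9 with scr shRNA and 8 of 9 with RUS shRNA, with medians of 0.67 and 1.18, and 1 of 9 fell with either; their part in the increase of the lineage genes was not tested.

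**Figure D4:**
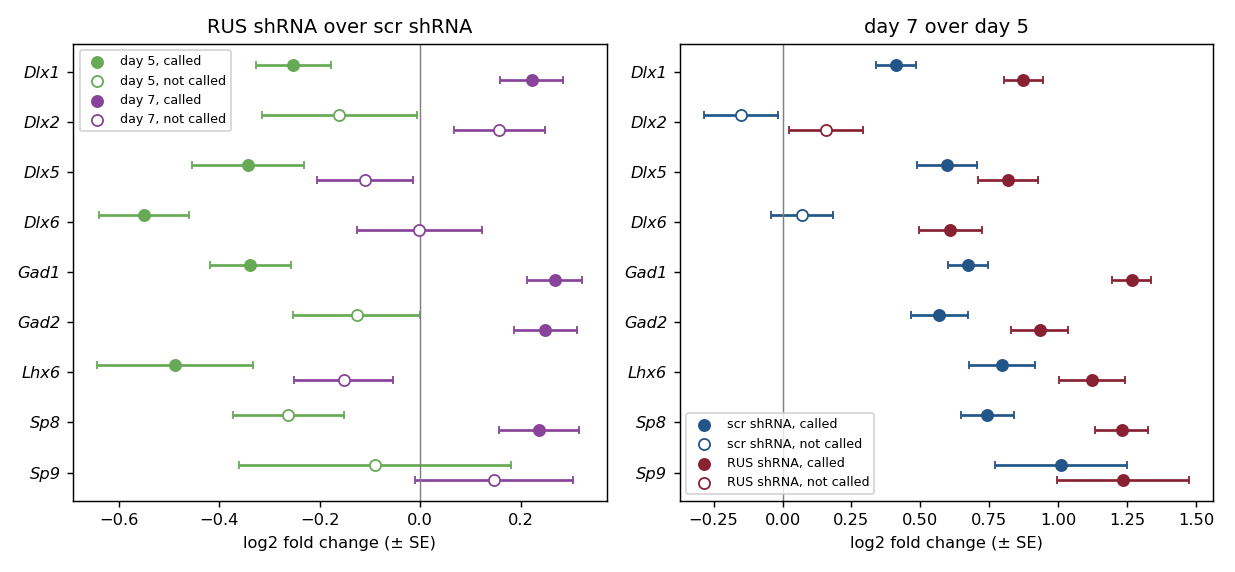
Log2 fold change with its standard error for the 9 genes, on the left RUS shRNA over scr shRNA on day 5 and day 7, on the right day 7 over day 5 with either shRNA; filled points were called by limma. On the left the called genes lie between −0.55 and −0.25 on day 5 and between 0.22 and 0.27 on day 7, and on the right Dlx2 is open with both shRNAs.

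Ratios of paired genes within a library were compared between the days. The ratio of Dlx1 to Dlx2 was 3.25, 3.14, 2.94 and 2.35 in the controls of day 5 and 4.36, 3.93, 4.01 and 4.89 in those of day 7. With RUS shRNA it was 2.54, 2.39, 2.78 and 3.23 on day 5 and 4.59, 4.17, 4.46 and 4.69 on day 7. Every library of day 7 was above every library of day 5 with either shRNA (exact permutation test, two-sided, p = 0.0286 for each shRNA, n = 4, the smallest p that 4 against 4 libraries allow; adjusted over 16 ratio tests p = 0.0914). The ratio of Dlx5 to Dlx6 went from 1.68 ± 0.142 to 2.42 ± 0.223 with scr shRNA, again without overlap (exact p = 0.0286, n = 4; adjusted p = 0.0914), and from 1.95 ± 0.131 to 2.31 ± 0.611 with RUS shRNA (exact p = 0.314, n = 4; adjusted p = 0.457). The ratio of Dlx6os1 to Dlx6 went from 2.12 ± 0.150 to 5.40 ± 0.469 and from 1.89 ± 0.334 to 5.17 ± 0.620 (exact p = 0.0286 for each shRNA, n = 4; adjusted p = 0.0914). The ratio of Gad1 to Gad2 went from 3.32 ± 0.177 to 3.56 ± 0.277 with scr shRNA (exact p = 0.257, n = 4; adjusted p = 0.457) and from 2.91 ± 0.601 to 3.597 ± 0.232 with RUS shRNA (exact p = 0.114, n = 4; adjusted p = 0.261). None of these passed the adjustment. Between the shRNAs of the same day, no ratio had an exact p under 0.05.

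The wider lineage was followed with lists fixed with the earlier results of these data known. The counts of each list stand against 14.8% of all genes called higher and 17.9% lower on day 5, and 23.4% higher and 25.8% lower on day 7. Of the 8 ventral progenitor factors, which act before or beside the Dlx genes, 6 were tested. RUS shRNA went with lower levels of 3 of them on day 5, among them Olig2 and Gsx2, and 2 on day 7, and with higher levels of none. Gsx2, a patterning factor of the lateral ganglionic eminence, fell by 0.44 on the log2 scale on day 5 (standard error 0.10, limma adjusted p = 0.00886). From day 5 to day 7 with scr shRNA it fell by 1.01 (limma adjusted p = 8.4e-06), as most of the lineage genes rose. Nkx2-1, which specifies the medial ganglionic eminence and lies upstream of Lhx6, was at 8.45 ± 1.19 with scr shRNA on day 5 and was not called in any comparison.

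Of the 13 interneuron specification factors, 3 were lower and 2 higher with RUS shRNA on day 5, and 2 lower and 7 higher on day 7. The shares of day 5, 23.1% lower and 15.4% higher, were near those of all genes. Their median was −0.21 on day 5 and 0.25 on day 7. Sox6, a factor of medial ganglionic eminence interneurons, fell by 0.66 and by 0.31 (limma adjusted p = 0.00320 and 8.04e-04). Zeb2, which directs interneurons to the cortex, had −0.21 on day 5 (limma adjusted p = 0.177) and rose by 0.27 on day 7 (limma adjusted p = 0.00329). Maf had 0.08 and then 0.49 (limma adjusted p = 0.354 and 2.77e-04). Nr2f1, a factor of caudal and lateral progenitors, rose by 0.32 and 0.54 (limma adjusted p = 0.0138 and 2.07e-04). Dlx1as, the antisense partner of Dlx1, had −0.39 and 0.02 and was called on neither day (limma adjusted p = 0.0555 and 0.834), where Dlx1 itself was called on both.

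Of the 9 genes of the olfactory bulb and lateral ganglionic eminence lineages, 1 was lower on day 5, or 11.1%, under the share of all genes, and 4 were higher on day 7, or 44.4%. Pbx3 fell by 0.22 on day 5 (limma adjusted p = 0.0378). On day 7 Tshz1 and Foxp1 rose by 0.63 each and Meis2 by 0.29 (limma adjusted p between 1.74e-05 and 1.29e-04). Etv1 was called on neither day (−0.09 and −0.03), and rose from day 5 to day 7 by 1.07 with scr shRNA (limma adjusted p = 2.48e-06).

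All 5 interneuron migration genes were called on day 7, 3 higher and 2 lower. Erbb4, the neuregulin receptor of migrating interneurons, had 4.42 ± 0.704 scaled TPM with scr shRNA on day 5 and 18.2 ± 1.64 on day 7, a rise of 2.02 on the log2 scale (standard error 0.16, limma adjusted p = 6.45e-08). With RUS shRNA it had −0.35 on day 5 (limma adjusted p = 0.225) and rose by 0.36 on day 7 (limma adjusted p = 0.00448). The chemokine receptor Cxcr4 rose with RUS shRNA on both days, by 0.24 and 0.46 (limma adjusted p = 0.0319 and 5.25e-06), whereas the second receptor of the same chemokine, Ackr3, fell by 0.32 and 0.68 (limma adjusted p = 0.0402 and 1.93e-05). The guidance receptor Robo1 rose by 0.36 and 1.17 (limma adjusted p = 0.0450 and 2.42e-06), and Nrp2 had −0.22 and fell by 0.17 on day 7 (limma adjusted p = 0.0723 and 0.0162).

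Of the 7 genes that load GABA into vesicles, take it up or break it down, 6 were tested. With RUS shRNA, 1 was higher and none lower on day 5, and 4 were higher and 1 lower on day 7. Slc32a1, the vesicular GABA transporter, had 0.14 on day 5 (limma adjusted p = 0.570) and rose by 0.69 on day 7 (standard error 0.09, limma adjusted p = 1.86e-04), from 6.05 ± 0.725 to 9.64 ± 0.547 scaled TPM. Slc38a1, a glutamine carrier of these neurons, had −0.10 and rose by 0.31 on day 7, and Abat, which breaks GABA down, had −0.02 and rose by 0.11 (limma adjusted p = 5.96e-05 and 0.0158 on day 7). Slc6a11, an astrocytic GABA transporter, fell by 0.24 on day 7 (limma adjusted p = 0.0451), and Aldh5a1 had 0.02 (limma adjusted p = 0.687).

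Of 12 genes of mature interneuron subtypes, 10 were tested on day 5 and 9 on day 7. With RUS shRNA, 1 was lower on day 5 and 4 on day 7, where 17.9% and 25.8% of all genes were called lower, and none was higher. Calb1 fell by 0.98 and 1.22 (limma adjusted p = 0.00680 and 8.7e-05) and Npy had −0.49 and fell by 0.94 on day 7 (limma adjusted p = 0.0593 and 8.5e-05). Calb2 had −0.21 and fell by 0.13 (limma adjusted p = 0.0593 and 0.0497). Sst, which was chosen after its values were seen because it lies downstream of Lhx6, fell by 1.12 on day 7 (limma adjusted p = 4.49e-04), at levels of 0.932 ± 0.107 and 0.375 ± 0.0550 scaled TPM. Pvalb, the other marker of that lineage, had −0.19 and 0.10 (limma adjusted p = 0.316 and 0.609).

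**Figure D5:**
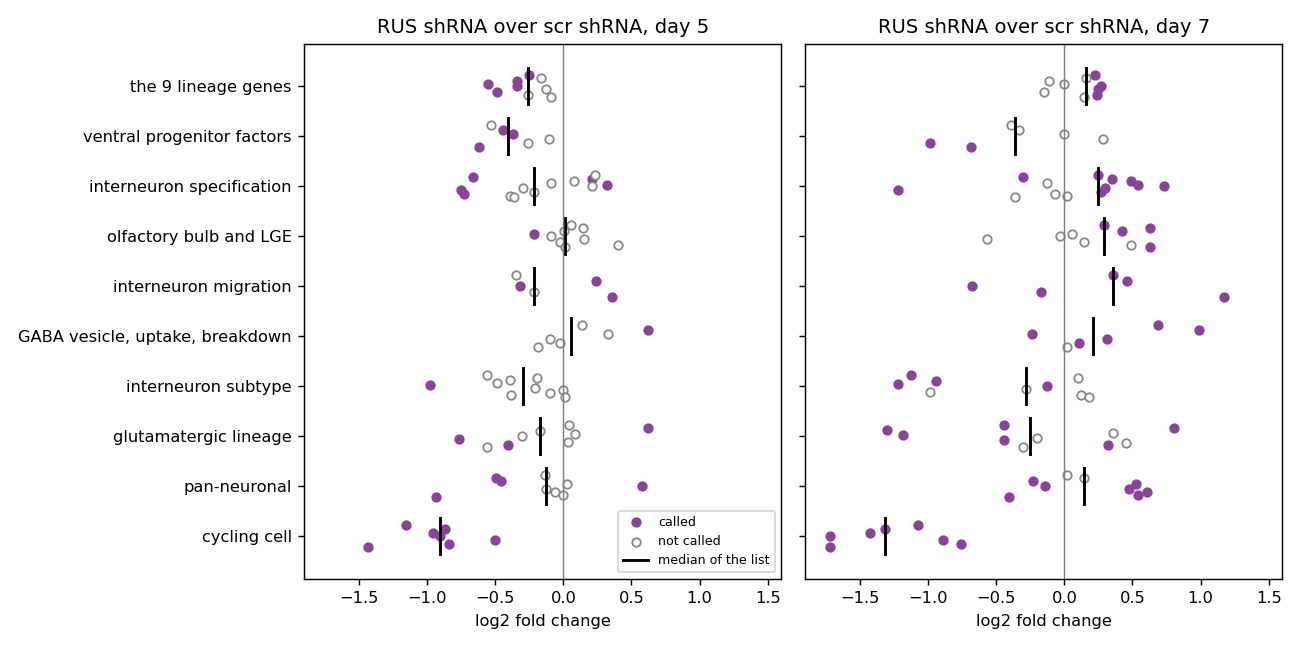
Log2 fold change of RUS shRNA over scr shRNA for each tested gene of 10 lists with day 5 in the left panel and day 7 in the right; filled points were called by limma, open points were not, and the black line is the median of the list. The median of the 9 lineage genes is −0.26 on day 5 and 0.16 on day 7, and all 7 cycling cell genes lie left of 0 on both days.

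Other cell types moved at the same time, and their part in the results above was not tested. All 7 cycling cell genes were lower with RUS shRNA on both days, with medians of −0.91 and −1.32, and their summed level was 712 to 742 scaled TPM with scr shRNA and 392 to 436 with RUS shRNA on day 5, and 725 to 732 and 283 to 317 on day 7. Of the 9 pan-neuronal genes, 1 was higher and 3 lower on day 5, and 4 higher and 3 lower on day 7, with medians of −0.13 and 0.14. Dcx, a marker of young neurons, fell by 0.49 on day 5 (limma adjusted p = 0.0252) and had 0.14 on day 7 (limma adjusted p = 0.212). Snap25, a synaptic gene, had −0.06 and rose by 0.61 on day 7 (limma adjusted p = 3.09e-04). The summed pan-neuronal level overlapped between the shRNAs, at 519 to 602 and 528 to 592 on day 5 and 765 to 854 and 725 to 858 on day 7. Within the sum of day 5, abundant genes moved in opposite directions. Stmn2 was at 153 ± 7.17 with scr shRNA and 229 ± 17.6 with RUS shRNA, and Map2 at 156 ± 17.6 and 114 ± 18.5. Of the 10 glutamatergic genes tested on day 7, 2 were higher and 4 lower, among them Emx2 with a rise of 0.80 and Neurod1 with a fall of 1.18 (limma adjusted p = 1.09e-05 and 0.00229). On day 5, 1 of 9 was higher and 2 were lower.

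All 7 microglia genes were lower on day 7 (summed level 266 to 293 scaled TPM with scr shRNA and 122 to 151 with RUS shRNA) and 2 of 7 on day 5 (120 to 131 and 107 to 141). Of the 6 oligodendrocyte precursor genes, 3 were lower on day 5 (189 to 255 and 135 to 211) and 5 on day 7 (296 to 330 and 192 to 212). Of the 7 astrocyte genes, 1 was higher and 1 lower on day 5, and 2 were higher and 2 lower on day 7. Their summed levels were 4098 to 4230 and 4966 to 5140 on day 5 and 2293 to 2412 and 2307 to 2587 on day 7. Gfap, the most abundant of them on day 5, was then at 1848 ± 74.5 with scr shRNA and 2791 ± 150 with RUS shRNA. Of the 6 neural stem cell genes, 3 were higher and 1 lower on either day. Their summed level was 11601 to 13766 with scr shRNA and 16865 to 20422 with RUS shRNA on day 5. On day 7 it was 6082 to 6417 and 6511 to 7103. Most of it came from Vim, at 9181 ± 730 with scr shRNA and 13489 ± 1406 with RUS shRNA on day 5. Of the 6 fibroblast and vascular genes tested, 1 was higher and 1 lower on day 5, and 3 were higher and 1 lower on day 7. The summed level of the 7 listed was 34.7 to 38.9 with scr shRNA and 31.2 to 43.2 with RUS shRNA on day 5. On day 7 it was 20.4 to 22.2 and 33.8 to 37.7, with Pdgfrb at 10.6 ± 0.580 and 26.3 ± 1.28.

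The genes whose pattern over the 16 libraries was most like that of each member were sought among 15899 genes that averaged 1 TPM or more, by Pearson's r of log2(scaled TPM + 0.1). The libraries form 4 groups, so that r mainly describes the steps between groups. For Gad1 they were Add2, Prokr2 and Tenm2 (r = 0.993, 0.992 and 0.990), for Dlx1 Dusp4, Srcin1 and Celf3 (0.992, 0.985 and 0.981), and for Sp8 Cdk5r1, Bcl11b and Shank1 (0.989, 0.986 and 0.985). For Dlx5 they were Slc29a4, Prag1 and Adgrb1 (0.982, 0.969 and 0.967), and for Lhx6 Prag1, Slc29a4 and Arhgap33 (0.981, 0.979 and 0.979), so that a pair of genes was shared. For Gad2 they were Gcc1, Rbfox2 and Gm49331 (0.972, 0.964 and 0.962), and for Sp9 Irf2bpl, Scrt2 and Fbll1 (0.965, 0.960 and 0.950). The values were lower for Dlx6 (Rpia, Rap1gap2 and Chd3, 0.891, 0.891 and 0.883) and for Dlx2 (Ier5, Vps37b and Fbrsl1, 0.83, 0.82 and 0.80). Among the members themselves, Gad1 and Sp8 were alike at 0.98 and Dlx5 and Lhx6 at 0.97, whereas Dlx2 reached 0.48 with Sp9 and no more than 0.34 with any other.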

How the data were processed

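Cultures were transduced with scr shRNA or RUS shRNA and polyA RNA was sequenced on day 5 and day 7, with 4 libraries per group. The authors mapped reads with STAR to mm10 and computed TPM per gene with RSEM, and deposited the TPM values in 1 table per day. The tables also hold a base mean, which the authors deposited as a signal averaged over the libraries of a day. The base mean was used here only to choose between lines of the same symbol and to describe Lhx6 and Dlx1. The authors' own log2 fold changes, errors, statistics and p-values of RUS shRNA against scr shRNA were also deposited and were not used. TPM of each library was divided by a factor, the median over genes (those at 1 TPM or more in all libraries of the fit) of the ratio to their geometric mean. Genes that averaged 0.1 TPM or more were tested with limma 3.58.1 (R 4.3.3, two-sided, lmFit followed by eBayes with a trend) on log2(scaled TPM + 0.1), with Benjamini-Hochberg adjustment over all genes tested and a threshold of 0.05. Each day was fitted on its 8 libraries, and comparisons that involve both days on all 16. Printed levels use the factors of all 16 libraries. Ratios and the targeted gene were compared by exact two-sided permutation tests, with 70 ways to split 8 libraries (scipy 1.17.1). The scripts were tested on simulated data.

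The 9 genes and the lists were chosen with earlier results of these data known. Of each list, at most 6 genes are named, those called in a comparison by lowest adjusted p and direct partners in function, and for each member the 3 genes of highest Pearson correlation. Single values of some listed genes, which are in the counts of their lists, are not reported here. Alternatives were other pseudocounts (0.01 and 1), filters, scalings and fits, each library left out in turn and the replicate number as a block. The correction for GC (median deviation within 20 bins of transcript GC removed in each library) and the fits without both day 5 libraries numbered 4 were added after the data were seen. TPM keeps no read numbers, so precision rests on the spread of 4 libraries.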

Additional observations from a re-analysis of the deposited data

Results flagged for a closer look

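The level of each member in each group, and that of Dlx1as and Dlx6os1, was examined for a library far from the other 3, by the gap to its nearest neighbour as a share of the range of the group. Chance flags about 1 in 20 groups, and 7 of the 44 groups examined stood out. Sp9 did so in scr shRNA on day 5 (0.900, replicate 4 high), in RUS shRNA on day 5 (0.926, replicate 4 low) and in RUS shRNA on day 7 (0.857, replicate 1 low). Dlx6 did so in RUS shRNA on day 7 (0.911, replicate 1 high), Dlx6os1 in RUS shRNA on day 5 (0.937, replicate 2 low), Dlx1 in scr shRNA on day 7 (0.869, replicate 3 high) and Gad1 in scr shRNA on day 7 (0.881, replicate 4 high).

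The knockdown effect differed between the days, day 7 minus day 5 on the log2 scale, in the limma fit over 16 libraries, where 15.2% of all genes had a called positive difference and 14.6% a called negative one. Among the members this held for Gad1 (0.59), Dlx6 (0.54), Sp8 (0.49) and Dlx1 (0.46). Of the 13 listed specification genes it held for 5, among them Dlx6os1 (0.65), Zeb2 (0.47) and Maf (0.40). Of the 9 genes of the olfactory bulb and lateral ganglionic eminence lineages 4 had a difference, among them Foxp1 (0.60), Tshz1 (0.47) and Meis2 (0.22). The migration genes Robo1 (0.80) and Erbb4 (0.69) had a positive difference and Ackr3 a negative one (−0.37). Of the 6 tested genes that handle GABA, 2 had a positive difference, among them Slc38a1 (0.40), and Slc6a11 a negative one (−0.57). Of the 10 tested genes of the glutamatergic list, 1 had a positive difference, Bcl11b (0.71), which cannot be assigned to that lineage alone. A negative difference was found for 1, Neurog2 (−1.12, limma adjusted p = 0.0307), which is named after its value was seen. Of the 9 pan-neuronal genes, 4 had a positive difference, among them Snap25 (0.65), Dcx (0.62) and Elavl3 (0.53), and Stmn2 a negative one (−0.73). Of the 7 cycling cell genes, 5 had a negative difference, among them Top2a (−0.46), and the median of the list was −0.40.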

How the results depend on the processing

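Of 1035 member log2 fold changes recomputed under the alternatives, 972 kept their direction and their side of the threshold. The number of members called lower on day 5 was 5, and 3 with no filter, with quantile normalization or with eBayes without a trend, 2 without both day 5 libraries numbered 4 (where 1, Sp9, was called higher), and 2 to 5 with 1 library left out. On day 7, 4 members were called higher, 2 in 1 fit over all 16 libraries and 3 to 4 with 1 library left out. Directions turned for values that were not called in the fits reported. For Dlx2 on day 5 the value was 0.0839 without both libraries numbered 4, and for Sp9 0.0648 with quantile normalization, 0.37 without both, and −0.18 to 0.16 with 1 library left out, above 0 without either library numbered 4. Dlx6 on day 7 was 0.00095 as deposited, 0.0473 with quantile normalization, 0.0352 with GC correction and −0.13 to 0.0519 with 1 library left out. From day 5 to day 7 with scr shRNA, Dlx2 was 0.00093 as deposited and Dlx6 −0.0486 with quantile normalization. The difference between days of Sp9 was −0.23 without both libraries numbered 4 and −0.0187 to 0.36 with 1 left out, lowest without RUS shRNA replicate 4 of day 5. The cause was not tested. Over all genes, TPM as deposited gave 1768 higher and 6037 lower on day 5 (3349 and 4034 scaled), 8573 and 3434 from day 5 to day 7 with scr shRNA (6394 and 5133), 11801 and 3545 with RUS shRNA (8317 and 6135), and 5700 and 2053 for the difference (3626 and 3464). With GC correction these were 4204 and 3715, 5624 and 6250, 7174 and 7458, and 3640 and 4192. The depth of single libraries could not be weighed, since TPM keeps no read numbers.

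Libraries of the 2 shRNAs share replicate numbers, but same-numbered libraries did not deviate together on day 5 (correlations of −0.25 to −0.02) and hardly on day 7 (0.02 to 0.10), so the numbers were not treated as pairs. With the replicate number as a block, 2 members were called lower on day 5 and 3 higher on day 7, and 2231 genes were called higher on day 5.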
